A study of Caenorhabditis elegans with 11 samples.

Results

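Knockdown of prp-31 was followed in adult Caenorhabditis elegans of the glp-4(bn2) strain by comparing the poly(A)-enriched RNA of 1 library from worms fed a prp-31 RNA interference (RNAi) clone with that of 1 library from worms fed a gfp clone. These are 2 of the 11 libraries of the study, chosen by their labels. Both came from strain SS104, which carries glp-4(bn2), and the worms were 5-day adults kept at 25 °C, fed for 72 h on OP50 and for a further 48 h on the bacteria with the RNAi clone. The gfp clone has no target in worms without a GFP transgene. The remaining library of the strain, from worms fed a prp-8 clone in the same way, and the prp-31 and gfp libraries of N2 (wild type) and smg-1(r861) larvae, fed for 24 h at 20 °C, are used for comparison. The sample titles give the glp-4 worms as L3, while the stage field and the design text give them as adults, and the deposited tables of the strain are titled glp-1 although their columns say glp-4. With 1 library a side, the differences below rest on single libraries, and no test was made.

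The glp-4 data are the authors' FPKM values (fragments per kilobase of transcript, scaled to the mapped fragments of the library) for 146 genes, 58 listed as higher and 88 as lower in the pooled prp-8 and prp-31 knockdowns than with gfp. All other genes have no value here. In the authors' pooled comparison most of the 146 genes have a deposited q-value (a p-value adjusted for the number of genes tested) above 0.05. A place in a table is therefore no established change. The submitters chose the listed genes from the same libraries, so the direction of a gene within its table is a product of that choice and is given as a description. Each fold divides one FPKM + 1 by another, which makes the changes of weakly expressed genes look smaller, and a log2 fold is the base-2 logarithm of such a ratio. The labels' protocols state more than 50 M reads for each sample, and how many each library had is not stated.

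The protein PRP-31 holds together the U4/U6 and U5 parts of the tri-snRNP, the particle that joins the spliceosome before it becomes active, and PRP-8 is the large protein at the heart of the U5 part. Mutations in the human genes for both proteins cause retinitis pigmentosa. The temperature-sensitive allele glp-4(bn2) affects a valyl-tRNA synthetase, and its germ cells fail to proliferate at the restrictive temperature, so that the strain serves as a source of adults with few germ cells. The heat shock response, to which the genes described first belong, is the induction of chaperone genes by the transcription factor HSF-1 when proteins unfold.

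The knockdown itself could not be checked in these adults. Neither prp-31 nor any other RNAi target or mutated gene of the study is in the glp-4 tables. Of the apoptosis, splicing, histone and mRNA decay lists no gene is in them either.

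On the FPKM + 1 scale the heat-inducible chaperone genes had the largest decreases. The order depends on the pseudocount. With 0.1 FPKM in place of 1, the log2 fold was −2.77 for the collagen gene dpy-13 and −2.22 for hsp-70. The levels of dpy-13 are low, and other genes at low levels, not ranked here, can also show larger decreases with the smaller pseudocount. The gene hsp-70 (C12C8.1), an inducible cytosolic chaperone of the Hsp70 family, had 98.6 FPKM with gfp, 21.1 FPKM with prp-31 and 51.6 FPKM with prp-8 RNAi. It was 4.50-fold lower with prp-31 than with gfp, the largest decrease among the 88 genes of the lower table on that scale. The small heat shock protein gene hsp-16.41 (Y46H3A.2) had 150 FPKM with gfp, 33.9 FPKM with prp-31 and 63.0 FPKM with prp-8. The related gene hsp-16.2 (Y46H3A.3) had 121 FPKM, 34.1 FPKM and 62.0 FPKM in the same order. All 3 were thus lowest with prp-31 and intermediate with prp-8. The folds below gfp were 4.32 for hsp-16.41 and 3.47 for hsp-16.2. Set directly against prp-8, prp-31 was 2.38-fold lower for hsp-70, 1.83-fold for hsp-16.41 and 1.79-fold for hsp-16.2.

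The pair hsp-16.2 and hsp-16.41 lies side by side on chromosome V. The deposited interval of hsp-16.2, on the minus strand, runs from 1804799 to 1804971, and that of hsp-16.41, on the plus strand, from 1805233 to 1805875, so the genes are transcribed away from each other. The hsp-16 genes are a family of related sequences that can share reads. The interval of hsp-70 runs from 9322407 to 9322511 on chromosome I. In the Ensembl annotation of WBcel235 hsp-16.2 and hsp-16.41 have 1 intron each and hsp-70 has 2. The sources used here name no genome build for the deposited positions. Of the 144 genes matched by sequence name to WBcel235, 143 have deposited intervals that overlap the gene there, and many of the intervals span only part of it.

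The fourth listed member of the heat shock list, sip-1, did not follow the other three. This small heat shock protein, known from oocytes and embryos, had 111 FPKM with gfp, 97.2 FPKM with prp-31 and 18.5 FPKM with prp-8 RNAi. It was 1.14-fold below gfp with prp-31 and 5.75-fold with prp-8. With prp-31 these 4 genes had a median log2 fold of −1.95, against −0.49 over the whole lower table. In the authors' deposited table, which compares the pooled knockdowns with gfp, the q-values were 0.0495 for hsp-16.41, 0.13 for hsp-70, 0.409 for hsp-16.2 and 0.758 for sip-1.

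**Figure D1:**
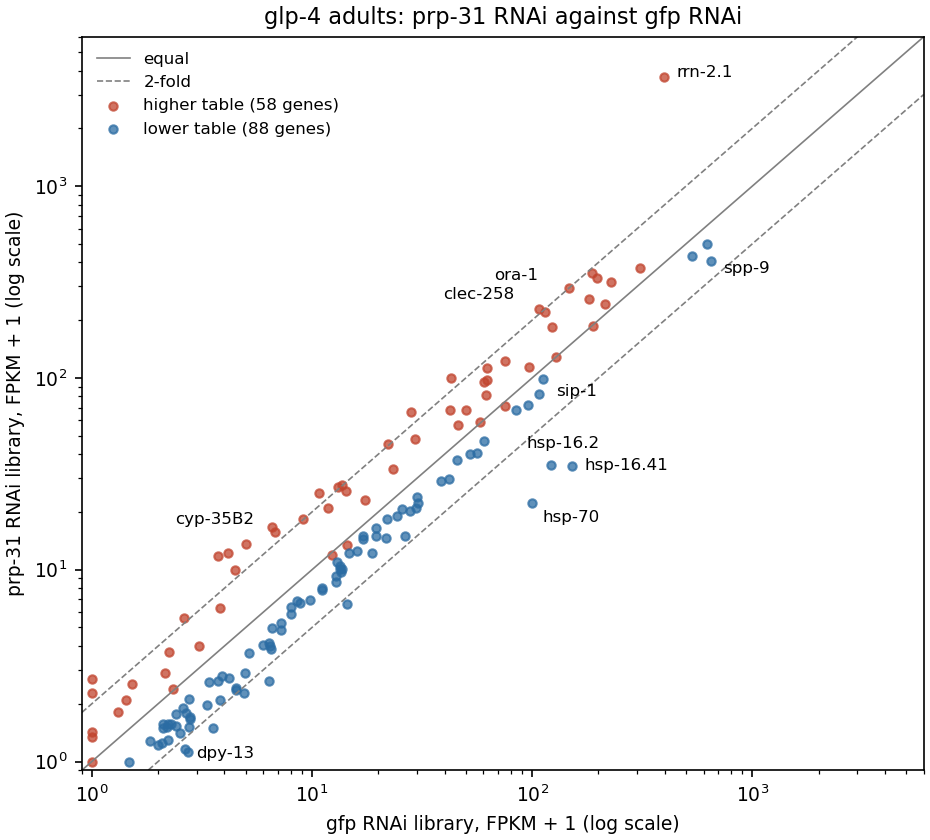
FPKM + 1 of each listed gene in the gfp RNAi library (horizontal axis) and the prp-31 RNAi library (vertical axis) of glp-4 adults, both on log scales, 1 point per gene, coloured by the authors' table; the solid line marks equal values and the dashed lines a 2-fold difference. The genes hsp-70, hsp-16.41 and hsp-16.2 lie furthest below the band of lower genes, and rrn-2.1 lies furthest above the line.

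Over the lower table the differences with prp-31 were small. All 88 genes were below gfp, with a median log2 fold of −0.49 (1.40-fold) and a range from −2.17 to −0.18. At least a 2-fold decrease was seen for 9 of the 88 genes, 10.2%, with prp-31. A decrease of 1.5-fold to 2-fold was seen for 20 genes and a smaller one for 59. With prp-8, 86.4% of this table reached a 2-fold decrease, with a median log2 fold of −1.94. Both comparisons use the same gfp library. Without it, 79 of the 88 genes had more FPKM + 1 with prp-31 than with prp-8, 54 of them at least 2-fold more, and the median ratio was 2.82-fold. Of the 88 genes, 8 had less with prp-31 than with prp-8, and hsp-70 was the only one with at least 2-fold less. Over both tables, 27 of the 146 genes (18.5%) were at least 2-fold from gfp in either direction with prp-31.

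Besides the 3 chaperone genes, the 9 genes at least 2-fold lower with prp-31 were dhs-8, ttr-50, 3 collagen genes and Y71A12B.11, a gene without a public name. The short-chain dehydrogenase gene dhs-8 had 5.35 FPKM with gfp, 1.63 FPKM with prp-31 and 2.19 FPKM with prp-8, a 2.41-fold decrease with prp-31. The transthyretin-related gene ttr-50, which shares a list with dhs-8 by its name pattern only, had 13.4 FPKM, 5.64 FPKM and 1.25 FPKM in the same order. Its lowest level was in the prp-8 library, unlike that of dhs-8. The gene Y71A12B.11 had 1.75 FPKM with gfp and 0.119 FPKM with prp-31. Just past the 2-fold bound stood dpy-14 and ttr-50, at log2 folds of −1.10 and −1.12. Just short of it were skr-9 and skr-8, at −0.93 and −0.91.

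The collagens of the lower table, structural proteins of the cuticle, had low levels in every library. With gfp, dpy-14 had 3.92 FPKM, col-125 2.54, dpy-13 1.66, col-133 1.22 and dpy-10 0.846 FPKM. With prp-31, the same genes had 1.29, 0.495, 0.157, 0.288 and 0.273 FPKM. They had 0.585, 0.348, 0.257, 0.308 and 0.0422 FPKM with prp-8. On the FPKM + 1 scale col-125, dpy-13 and dpy-14 were at least 2-fold lower with prp-31, and the 5 genes had medians of −1.10 (prp-31) and −1.08 (prp-8) in log2 fold. In dpy-13 and col-133 the prp-31 library had the lowest value, and in the other 3 the prp-8 library did. With a pseudocount of 0.1 FPKM in place of 1, the log2 folds of col-125 and dpy-13 with prp-31 were −2.15 and −2.77, and 28 genes of the lower table in place of 9 were at least 2-fold lower.

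Oocyte and germline genes, like most of the lower table, were close to gfp with prp-31 and far below it with prp-8. Although germ cells fail to proliferate in this strain, transcripts of these genes were present in the gfp library. The 15 members of the germline marker list were all in the lower table. None was at least 2-fold lower with prp-31, against 10.2% of the table, which for a list of this size says nothing particular. Their log2 folds ran from −0.68 to −0.18, with a median of −0.38, against −0.49 for the whole table. With prp-8 they ran from −3.08 to −1.95, with a median of −2.45, against −1.94 for the whole table. The summed level of the 15 genes was 400.3 FPKM with gfp, 305 FPKM with prp-31 and 51.6 FPKM with prp-8, so that prp-31 had 76.2% and prp-8 12.9% of the gfp sum. None of the 15 was at 0, and the lowest with prp-31 was perm-1 at 3.02 FPKM. In RNA of whole worms, fewer cells of a type and less RNA per cell cannot be told apart.

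Among proteins of the oocyte surface and eggshell, perm-1, needed for the permeability barrier of the eggshell, had 5.42 FPKM with gfp, 3.02 FPKM with prp-31 and 0.388 FPKM with prp-8. The LDL-receptor-like gene egg-1, needed on the oocyte for fertilization, had 28.8 FPKM, 19.9 FPKM and 2.57 FPKM. The yolk receptor gene rme-2 had 16 FPKM, 13.9 FPKM and 1.95 FPKM. The decrease with prp-31 was 1.60-fold for perm-1, 1.42-fold for egg-1 and 1.14-fold for rme-2, the smallest of the lower table. The chondroitin proteoglycan genes of the eggshell, cpg-2 and cpg-3, were 1.24-fold and 1.3-fold lower with prp-31, and 6.43-fold and 5.48-fold with prp-8.

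Maternal RNA-binding proteins, which control translation in oocytes and early embryos, gave the same order of libraries. The Pumilio-family genes puf-11 and puf-5 had 20.8 and 21 FPKM with gfp, 13.7 and 17.5 FPKM with prp-31, and 2.47 and 2.11 FPKM with prp-8. The gene spn-4 had 41.1 FPKM with gfp, 28.8 FPKM with prp-31 and 5.19 FPKM with prp-8, and pos-1 had 59.4, 45.8 and 6.16 FPKM. The decreases with prp-31 were 1.48-fold for puf-11, 1.42-fold for spn-4, 1.29-fold for pos-1 and 1.19-fold for puf-5. Those of gld-3, mex-6 and oma-1 were 1.37-fold, 1.27-fold and 1.20-fold. The rest of the germline list is not of this class: mei-2, a subunit of the meiotic spindle severing enzyme katanin, was 1.39-fold lower, meg-1 1.33-fold and trcs-1 1.24-fold. The Y-box genes cey-2 and cey-3, which are expressed in the germ line and are outside the list, were 1.31-fold and 1.38-fold lower with prp-31. For cey-2 the ratio of prp-31 to prp-8, 7.03-fold, was the largest of the lower table.

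**Figure D2:**
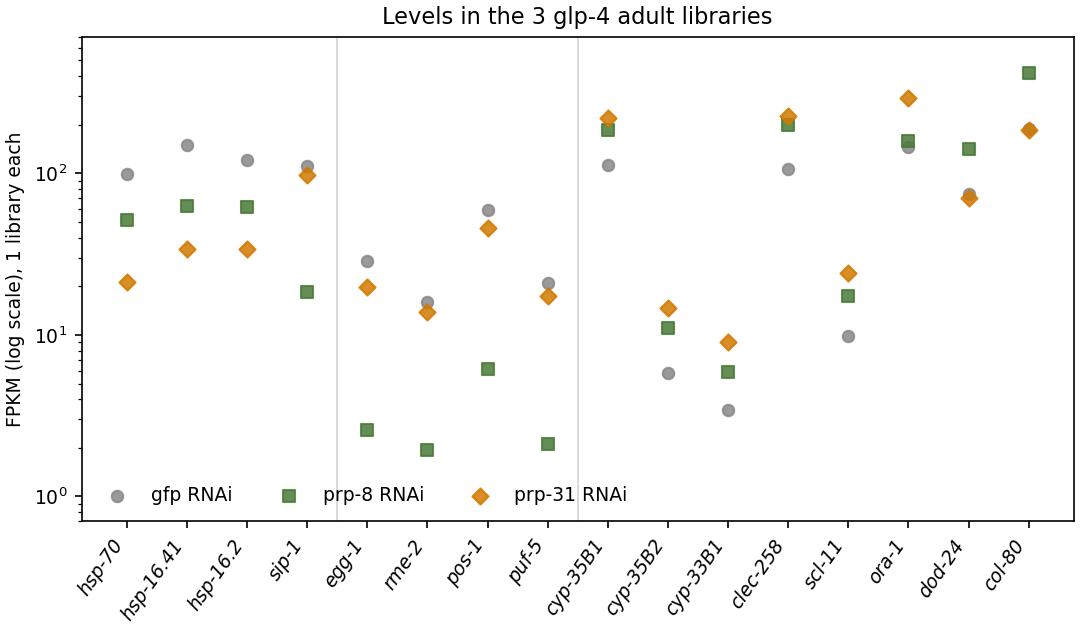
FPKM on a log scale of 16 genes in the gfp, prp-8 and prp-31 RNAi libraries of glp-4 adults, 1 point per library, with heat shock genes at the left, oocyte genes in the middle and genes of the higher table at the right. The points for prp-31 are the lowest for hsp-70, hsp-16.41 and hsp-16.2, whereas for sip-1 and the 4 oocyte genes the prp-8 points are the lowest.

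The Argonaute genes of germline small RNA pathways were likewise close to gfp with prp-31. The gene wago-1 had 18.6 FPKM with gfp, 15.5 FPKM with prp-31 and 3.55 FPKM with prp-8, and hrde-1, a nuclear Argonaute, had 12, 9.99 and 2.40 FPKM. The gene deposited as hpo-24, which RefSeq names alg-5, had 2.41, 1.60 and 0.383 FPKM. Their decreases with prp-31 were 1.19-fold, 1.18-fold and 1.31-fold.

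Of the replication and cell cycle list, 5 genes were in the lower table and none in the higher. None of the 5 was at least 2-fold lower with prp-31, and with 10.2% of the table past that bound a list of this size says nothing particular. The B-type cyclin gene cyb-2.2 had 17.8 FPKM with gfp, 11.2 FPKM with prp-31 and 1.93 FPKM with prp-8. The ribonucleotide reductase subunit gene rnr-2, also the one listed member of the DNA damage list, had 37.6, 27.9 and 9.69 FPKM. The decreases with prp-31 were 1.54-fold for cyb-2.2, 1.43-fold for the phosphatase gene cdc-25.2 and 1.40-fold for the Polo-like kinase gene plk-3. Those of rnr-2 and cpg-3 were 1.34-fold and 1.3-fold. The eggshell gene cpg-3 is a member of the germline list too, and is in this list by its name pattern only.

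The Skp1-related genes, whose products are adaptors of ubiquitin ligases, formed with F-box genes and others matched by name a list with 9 genes, all in the lower table. None of the 9 was at least 2-fold lower with prp-31, against 10.2% of the table. With a pseudocount of 0.1 FPKM, skr-8, skr-9, skr-15, sdz-28, fbxb-78 and fbxc-51 were, against 28 of the 88 genes of the table. On the FPKM + 1 scale the 9 listed genes had a median log2 fold of −0.62, against −1.80 with prp-8. The gene skr-9 had 3.52 FPKM with gfp, 1.37 FPKM with prp-31 and 0.184 FPKM with prp-8, and skr-8 had 3.53, 1.41 and 0.302 FPKM. The gene skr-15 had 2.84, 1.10 and 0.0644 FPKM. The folds below gfp with prp-31 were 1.91, 1.88 and 1.83, followed by 1.54 for skr-10 and 1.40 for skr-7. The members skr-8 and skr-9 are neighbours on chromosome IV, and members of the family can share reads. The 5 skr genes have no intron in WBcel235, against 3.49% of all protein-coding genes there.

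Antimicrobial and lectin genes were in both tables. Of the innate immunity list, 6 genes were in the lower table, with log2 folds from −0.67 to −0.29 with prp-31. The saposin-like gene spp-9 had 646 FPKM with gfp, 407 FPKM with prp-31 and 70.9 FPKM with prp-8, and spp-12 had 529, 432 and 113 FPKM. The lectin genes clec-88 and clec-87 had 29.1 and 94.3 FPKM with gfp, 21.1 and 71.4 FPKM with prp-31 and 4.31 and 11.1 FPKM with prp-8. The exception to this order was the caenacin gene cnc-7, with 624 FPKM with gfp, 501 FPKM with prp-31 and 524 FPKM with prp-8. Its log2 folds of −0.32 with prp-31 and −0.25 with prp-8 were close to each other. Both were smaller decreases than the deposited pooled log2 fold of −1.01 (374 FPKM against 752 FPKM with gfp), so the level of cnc-7 is uncertain. The gene F22B3.4, which RefSeq names gfat-2 and which encodes an enzyme of amino sugar synthesis, had 25.4 FPKM with gfp, 14 FPKM with prp-31 and 1.94 FPKM with prp-8. The glutamine synthetase genes gln-5 and gln-6 had log2 folds of −0.25 and −0.33 with prp-31.

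The genes listed as higher included detoxification and immunity genes, whose medians with prp-31 were close to that of the whole table. At least a 2-fold increase was seen for 18 of the 58 genes, 31%, with prp-31, and 25.9% reached it with prp-8. The genes were mostly not the same: 3 reached it with both, 15 with prp-31 alone and 12 with prp-8 alone. The 3 were rrn-2.1, Y74C9A.6 and W02D7.11, the last 2.54-fold above gfp with prp-31 and 2.82-fold with prp-8. Over the whole table the median log2 fold was 0.70 with prp-31 and 0.75 with prp-8. With prp-31, 16 genes were 1.5-fold to 2-fold above gfp and 19 were above it by less, and 5 were not above it. Against prp-8, 25 genes had more FPKM + 1 with prp-31 and 33 had less, so neither knockdown was the higher throughout. Of the 18 genes, Y74C9A.6, a small nucleolar RNA gene, and ZK822.10 are listed at 0 FPKM with gfp, which can be a failed estimate, and no fold is given for them.

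Cytochrome P450 genes, whose products oxidize small molecules, were the main part of the 9 genes of the detoxification list in the higher table. All 9 were above gfp with prp-31, with log2 folds from 0.29 to 1.21 and a median of 0.73, against 0.70 for the table, and 2 were at least 2-fold higher, against 31% of the table. The gene cyp-35B2 had 5.77 FPKM with gfp, 14.7 FPKM with prp-31 and 11.1 FPKM with prp-8. Its neighbour on chromosome V, cyp-35B1, had 113 FPKM with gfp, 218 FPKM with prp-31 and 187 FPKM with prp-8. Both were highest with prp-31, 2.31-fold and 1.93-fold above gfp. The gene cyp-33B1 had 3.45, 9.0 and 5.85 FPKM in the order gfp, prp-31 and prp-8, and cyp-33C8 had 61.5, 112 and 77.0 FPKM. These 2 genes were 2.25-fold and 1.81-fold above gfp with prp-31, while their log2 folds with prp-8 were 0.62 and 0.32. The remaining P450 genes, cyp-13A6 and cyp-33C1, were 1.58-fold and 1.66-fold above gfp with prp-31 and 2.16-fold and 2.02-fold with prp-8. The glucuronosyltransferase genes ugt-47 and ugt-61 and the P-glycoprotein gene pgp-1 were 1.34-fold, 1.23-fold and 1.3-fold above gfp with prp-31. In the lower table the detoxification list had 2 genes, dhs-8 and ttr-50, described above.

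The deposited intervals of cyp-35B1, from 3939127 to 3941235, and cyp-35B2, from 3942215 to 3944519, are 979 bp apart. Another pair of near neighbours in the higher table was ora-1 and F57H12.6 on chromosome IV. The gene ora-1, related to an antigen of the parasitic worm Onchocerca, had 146 FPKM with gfp, 292 FPKM with prp-31 and 159 FPKM with prp-8, and F57H12.6 had 41.8, 98.6 and 52.7 FPKM. Both were closer to gfp with prp-8 (log2 folds of 0.12 and 0.33) and 1.99-fold and 2.33-fold above it with prp-31. Within 10000 bp of each other the tables held 11 such neighbouring pairs, each with both genes in the same table. The pairs are not all separate, as cth-1 is in a pair with str-7 and in another with F44G3.2. How many such pairs genes unrelated to each other would give was not tested.

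The innate immunity list had 10 genes among the higher ones, of which 3 were at least 2-fold above gfp with prp-31, a share close to the 31% of the table, with a median log2 fold of 0.60 against 0.70 for the table. The secreted SCP-like gene scl-11 had 9.78 FPKM with gfp, 24.1 FPKM with prp-31 and 17.4 FPKM with prp-8. The C-type lectin gene clec-258 had 106, 228 and 200.0 FPKM, and the acyltransferase-like gene oac-54 had 1.62, 4.63 and 2.41 FPKM. These were 2.33-fold, 2.13-fold and 2.15-fold above gfp with prp-31. The lectin gene clec-218 had 186 FPKM with gfp, 352 FPKM with prp-31 and 224 FPKM with prp-8. The lysozyme genes ilys-3 and lys-4 were 1.57-fold and 1.33-fold above gfp with prp-31 and 1.62-fold and 1.56-fold with prp-8.

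**Figure D3:**
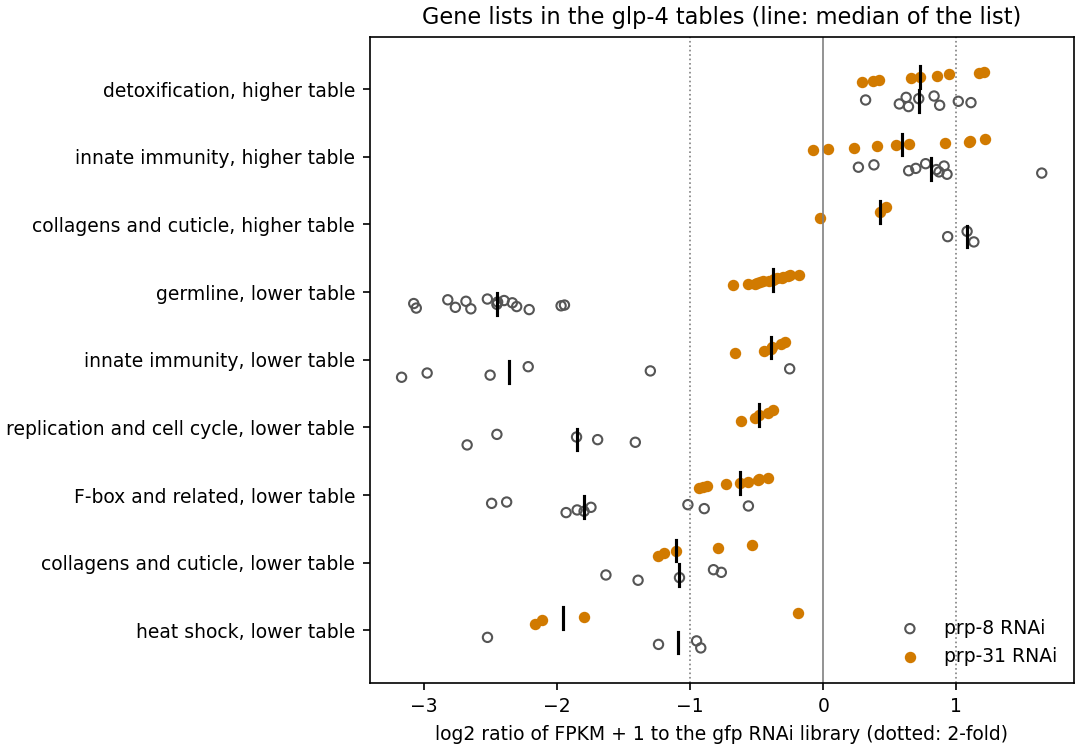
Log2 ratio of FPKM + 1 to the gfp RNAi library for each gene of the lists with at least 3 members in a glp-4 table, with filled points for prp-31, open points for prp-8 and a black line at the median of the list; dotted lines mark 2-fold. For the 15 germline genes the prp-31 points lie between −0.68 and −0.18 and the prp-8 points between −3.08 and −1.95, and for 3 of the 4 heat shock genes the prp-31 points are the lower.

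Some genes of the higher table were at the gfp level with prp-31 and above it with prp-8. The gene dod-24, an immunity gene downstream of the insulin pathway, had 74.2 FPKM with gfp, 70.2 FPKM with prp-31 and 142 FPKM with prp-8. The collagen gene col-80 had 189, 186 and 415 FPKM, and the glucocerebrosidase-related gene gba-4 had 11.4, 10.9 and 20.5 FPKM. These 3 genes were 1.06-fold, 1.02-fold and 1.04-fold below gfp with prp-31. With the folds shifted to those of the pooled comparison the direction turned, to log2 folds of 0.06, 0.11 and 0.08. All 58 genes of the table in place of 53 were then above gfp. The 58 include Y67A10A.14, a small nucleolar RNA gene at 0 FPKM with gfp and with prp-31, which the shift alone puts above gfp. The cathepsin B-like gene cpr-2 had 1.33 FPKM with gfp, 1.39 FPKM with prp-31 and 6.29 FPKM with prp-8. The other listed collagens of the table, col-124 and col-51, were 1.39-fold and 1.35-fold above gfp with prp-31 and 2.12-fold and 1.91-fold with prp-8. The gene F55G11.4, named mbug-1 by RefSeq, had 127 FPKM with gfp, 127 FPKM with prp-31 and 461 FPKM with prp-8, so it was at the gfp level with prp-31 and 3.61-fold above it with prp-8.

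The largest ratio of the higher table was that of rrn-2.1, a ribosomal RNA gene, in libraries enriched for poly(A) RNA. It had 397 FPKM with gfp, 3716 FPKM with prp-31 and 102770 FPKM with prp-8. The log2 fold was 3.22 with prp-31 (9.33-fold) and 8.01 with prp-8, and prp-8 was 27.7-fold above prp-31. The FPKM of other genes can share a denominator with this RNA, and its part in the differences above was not tested. Next came genes without a public name in the table, chosen here after their values were seen. The gene F48C1.11 had 2.76 FPKM with gfp, 10.7 FPKM with prp-31 and 4.95 FPKM with prp-8, and F32G8.3 had 3.17, 11.2 and 5.13 FPKM. They were 3.12-fold and 2.92-fold above gfp with prp-31 and 1.58-fold and 1.47-fold with prp-8. The gene F12A10.7, named suex-1 by RefSeq, was 2.72-fold and its neighbour F12A10.9 2.04-fold above gfp with prp-31. The gene H39E23.3 had 27.1 and 65.6 FPKM with gfp and prp-31, but its pooled gfp value in the authors' deposited table is 1.3 FPKM, so its level is uncertain. The level of F14D7.10 is uncertain too, with pooled values of 0 FPKM for gfp and 1.66 FPKM for the knockdowns. Although listed as higher, it had 13.5 FPKM with gfp, 12.5 FPKM with prp-31 and 11.2 FPKM with prp-8. Just inside the 2-fold bound stood H20E11.2 and R05H10.1, at log2 folds of 1.01 and 1.03, and just outside ora-1 and cyp-35B1, at 0.99 and 0.95.

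**Figure D4:**
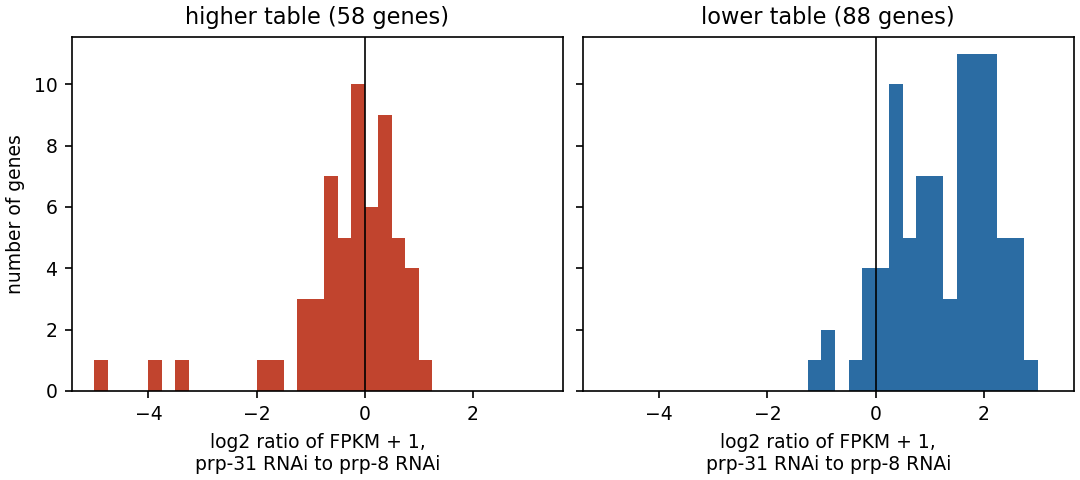
Numbers of genes by the log2 ratio of FPKM + 1 in the prp-31 library to that in the prp-8 library of glp-4 adults, for the higher table (58 genes, left) and the lower table (88 genes, right), with a line at equal values. To the right of the line lie 79 of the lower and 25 of the higher genes.

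The level of a gene with gfp gave no single pattern of the prp-31 change. In the lower table, the 13 genes with at least 50 FPKM with gfp had a median log2 fold of −0.39 with prp-31, and the 3 heat-inducible chaperone genes were the only ones of them at least 2-fold lower. The 27 genes below 3 FPKM had a median of −0.58, with 3 genes at least 2-fold lower. In the higher table the 7 genes of 3 to 10 FPKM all were at least 2-fold above gfp with prp-31, whereas 2 of the 21 genes of at least 50 FPKM were. These level classes were chosen after the values were seen.

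By position, 22 of the 58 higher genes (37.9%) and 13 of the 88 lower genes (14.8%) lay on chromosome V, which holds 25.0% of the protein-coding genes of WBcel235. Chromosome X held 5 higher and 6 lower genes (8.62% and 6.82%, against 13.7% of all). Genes with at most 1 intron were 31.5% of the 54 protein-coding higher genes and 24.1% of the 87 lower genes with an entry in that annotation, against 13.5% of all protein-coding genes. Of the 9 lower genes at least 2-fold lower with prp-31, 4 had at most 1 intron. The detoxification genes of the higher table had 3 to 13 introns.

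Some genes of the glp-4 tables also had a value after prp-31 knockdown in larvae. Of the 58 higher genes 5 are also in an N2 table and 7 in a smg-1 table, 10 genes in all. Of the 88 lower genes 7 are in an N2 table and 4 in a smg-1 table, also 10 genes in all. The shared genes in the same direction were 2.02% of the 346 higher genes of smg-1 and 0.978% of those of N2, and 7.58% of the 66 lower genes of N2 and 1.44% of the 139 of smg-1. The background to these shares is 58 and 88 glp-4 genes beside 19985 protein-coding genes in WBcel235, so a low percentage alone does not make the overlap small. Whether it exceeds that of unrelated genes was not tested. Each strain has its own gfp library, and because the tables were made separately, levels set side by side across strains are not on a tested common scale. The worms also differ in stage and temperature between the strains.

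Of the shared higher genes, ora-1 and F44G3.2 were among those above gfp in adults and larvae with prp-31 RNAi. The gene ora-1 was 1.99-fold above gfp in glp-4 adults and 2.83-fold in N2 larvae (26.0 FPKM with gfp and 75.5 FPKM with prp-31). The gene F44G3.2, named argk-1 by RefSeq after arginine kinase, was 1.68-fold above gfp in glp-4 adults and 1.87-fold in smg-1 larvae (202 and 379 FPKM). Near it on chromosome V lies cth-1, for cystathionine gamma-lyase, which was 1.42-fold above gfp in glp-4 adults and 1.55-fold in smg-1 larvae. In smg-1 larvae, rrn-2.1 was 3.02-fold above gfp. In the other direction, Y75B8A.3 was 1.62-fold above gfp in glp-4 adults and 1.47-fold below it in N2 larvae. The gene pgp-1 was 1.3-fold above gfp in glp-4 adults and 2.03-fold in smg-1 larvae. The remaining shared higher genes, F55G11.4, lys-4, C50F7.5 and C14C6.5, had log2 folds between −0.05 and 0.43 in larvae.

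Of the 10 shared lower genes, 3 were listed as higher in a larval table. In smg-1 larvae hsp-70 had 3.40 FPKM with gfp and 8.06 FPKM with prp-31, 2.06-fold higher, against 98.6 and 21.1 FPKM in glp-4 adults. The collagen gene dpy-13 had 314 FPKM with gfp and 806 FPKM with prp-31 in N2 larvae, 2.56-fold higher, against 1.66 and 0.157 FPKM in the adults. The eggshell gene cpg-2 had log2 folds of 0.73 in N2 and 0.33 in smg-1 larvae with prp-31, with gfp levels of 5.21 and 8.23 FPKM. These 3 genes had gfp levels that differed widely between the larvae and the adults. So did some shared genes with the same direction in both, such as rrn-2.1, ora-1 and spn-4. The other 7 shared lower genes, among them spn-4, wago-1 and cey-3, were below gfp with prp-31 in the larvae too, with log2 folds from −1.02 to −0.42. For spn-4 the decrease was 1.60-fold in N2 larvae and 1.42-fold in glp-4 adults.

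**Figure D5:**
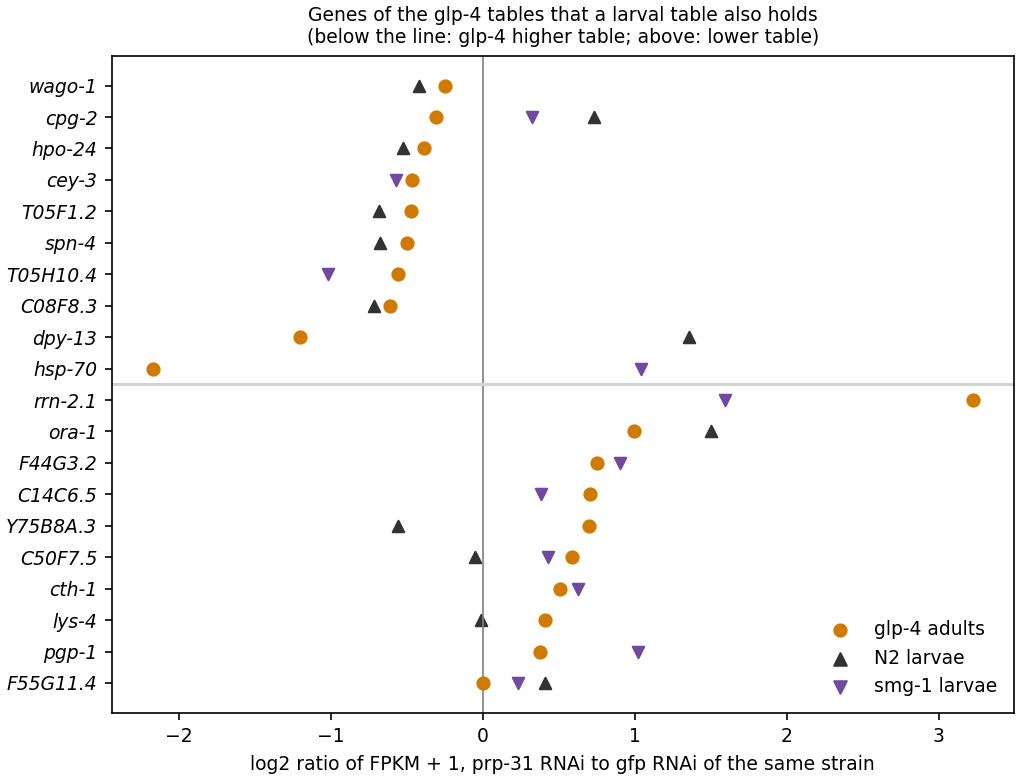
Log2 ratio of FPKM + 1 of prp-31 RNAi to gfp RNAi of the same strain for the 20 genes of the glp-4 tables that an N2 or smg-1 larval table also holds, 1 point per strain. The genes hsp-70 and dpy-13 lie at −2.17 and −1.20 in glp-4 adults and at 1.04 and 1.36 in larvae.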

How the data were processed

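Poly(A)-enriched RNA was sequenced as paired reads of 73 bp, per the labels' protocols, with 1 library per group. Cufflinks and Cuffdiff were used, per the submitters' processing notes; no version, aligner, genome build or annotation is given in the sources used here. The authors deposited FPKM values for single libraries and for pooled knockdowns and gfp, per the file headers. Of the pooled comparison they deposited the log2 fold, its q-value and its p-value, and a test statistic, a score that was not used.

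For each gene the log2 ratio of FPKM + 1 was computed between libraries of a strain, with a pseudocount of 1 FPKM. A gene was counted as changed at a fold of at least 2. No test was made, since each group has 1 library. Of the 146 glp-4 genes, 144 were matched by sequence name to WBcel235 (Ensembl) for introns and strand, and to RefSeq (WBcel235) for names; introns are those of the transcript with the most exons.

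The genes compared and the gene lists were chosen with earlier results of these data known. List members were found by name pattern alone; hpo-24, for example, is in the innate immunity list by its name. Named genes are the members of the target, apoptosis, DNA damage, splicing and heat shock lists; in each table the 8 public names without a 0 value that changed most with prp-31 in its direction and up to 4 against it; the 4 with the largest and the 4 with the smallest ratio of prp-31 to prp-8; the 3 largest of each list with at least 3 members; up to 8 genes a table shared in the same direction with a larval table; and those next to the 2-fold bound. Other names complete a list or were added after the values were seen. No gene of the sperm, intestine, muscle, hypodermis and neuron marker lists, nor of the unfolded protein response, hedgehog-related, yolk, ribosomal protein and proteasome lists, is in the glp-4 tables. The lipid metabolism and nuclear hormone receptor lists had 1 member each, cpt-3 (log2 fold 0.69) and nhr-2 (−0.58).

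Of the 146 genes, 6 have a 0 in some library and 9 have no finite deposited log2 fold. Alternatives were a pseudocount of 0.1 FPKM, a mean of at least 1 FPKM, leaving out genes with a 0 value, and a shift to the scale of the pooled columns. The software was matplotlib 3.10.9, pandas 2.3.3 and numpy 2.4.6 under Python 3.11.15, and the code was tested on simulated data.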

Additional observations from a re-analysis of the deposited data

How the results depend on the processing

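Under the 4 alternatives the counts and medians kept their direction, and all but 1 moved by no more than 1.5 times. That factor was set by choice and does not measure the spread between replicates, which is missing. The exception was the number of lower genes at least 2-fold below gfp with prp-31, which was 9 with a pseudocount of 1 FPKM and 28 with 0.1 FPKM. The 28 include the same 9 genes, and those added have low levels, among them dpy-10, col-133, skr-8, skr-9 and skr-15. The number of higher genes at least 2-fold above gfp was 18 with a pseudocount of 1 FPKM and 24 with 0.1 FPKM, 17 at a mean of at least 1 FPKM and 16 without genes with a 0 value. The deposited log2 folds exceed those of the mean knockdown over gfp by a median of 0.13; with that shift 21 higher and 7 lower genes passed the 2-fold bound, with cyp-35B1, ora-1 and clec-218 gained and dpy-14 and ttr-50 lost. Of the genes named by the selection rules, only col-125 and dpy-13 moved by more than 1.5 times in fold under the smaller pseudocount. Among genes named outside those rules, some at low levels, such as Y71A12B.11, col-133 and dpy-10, by their FPKM also moved past that factor. Under the shift no gene named by the rules moved by so much. The shift did turn the direction of genes near gfp: dod-24, col-80 and gba-4 went above it. With the shift, 58 in place of 53 of the higher genes were above gfp. That count includes Y67A10A.14, at 0 FPKM with gfp and with prp-31, which only the added constant puts above gfp. With the smaller pseudocount dpy-13 (−2.77) passed hsp-70 (−2.22) as the lower in log2 fold. No paired analysis was possible because each group has 1 library, and for the same reason no library could be left out. The read number behind each library is not given beyond the stated minimum, and genes at low FPKM are the least certain.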
